A study of Mus musculus with 8 samples.

Results

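Ethanol was added to neural stem cells held in FGF2, and their RNA was compared with RNA of cells held in FGF2 alone. The comparison used 4 of the 8 arrays of the study, chosen by their labels: 2 arrays labelled FGF2 and 2 labelled Ethanol and FGF2. The cells were NS5, mouse neural stem cells whose labels give brain as the tissue and E11.5 as the age. All cells, the controls included, were first plated with EGF and FGF2 for 24 h, rinsed, and left without growth factor for 4 h. FGF2 was then given for 48 h with no ethanol or with ethanol at 400 mg/dl. The labels state the FGF2 dose as 10 ng/ul. The other 4 arrays came from cells held in TGF-beta1 in place of FGF2, without and with ethanol. They entered the estimate of the spread and 1 comparison near the end. The labels name a single cell line and do not say whether the replicates were separate cultures, so p-values measure only the spread between these samples, which may be technical. No genotype, transgene or passage was given.

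FGF2 binds FGF receptors and, through the ERK pathway, keeps neural stem cells dividing in culture. A dividing cell copies its DNA in S phase and separates the copies in mitosis. Genes for replication are switched on by E2F factors at the entry to S phase and genes for mitosis later in the cycle, and both are low in cells that have left it. Ethanol is known to limit the growth of neural precursors and to disturb adhesion and growth factor signalling in the developing brain.

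Each array gave 1 signal per probe set, a linear fluorescence intensity made with MAS5 and scaled to the same 2% trimmed mean on every array. Median signals of the 4 arrays lay between 50.7 and 86.5, and 40.5% to 46.6% of probe sets had a signal above 100. A value of 23.66, the 25th percentile of all signals, was added before taking log2, and every fold and log2 difference below is on that scale, which understates the change of dim genes. After a filter on dim genes, 10916 genes remained. The 3′ to 5′ signal ratio of Gapdh, a sign of RNA integrity, was 1.64 and 2.20 on the FGF2 arrays and 3.33 and 3.48 on the ethanol arrays. That of Actb was 2.35 and 3.61 against 3.57 and 4.20. The Gapdh ratios of the groups did not overlap, and their part in the results was not tested.

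The array labelled as Ethanol and FGF2 replicate 1 went against its label in Fn1 (fibronectin, a matrix protein that TGF-beta induces; GRCm38.p6 chr1:71585473-71653280). The Fn1 signal was 119.7 and 138.9 on FGF2 replicates 1 and 2, 6828 on the array labelled as Ethanol and FGF2 replicate 1, and 116 on replicate 2. Cells in TGF-beta1 alone had 3015 and 4109. The array labelled as Ethanol and TGF-beta1 replicate 1 had 124, and its replicate 2 had 8226. Pmepa1, a direct target of TGF-beta signalling, gave 935 and 548 in FGF2, 8198 on the array labelled as Ethanol and FGF2 replicate 1, 1057 on replicate 2, and 1081 on the array labelled as Ethanol and TGF-beta1 replicate 1. So 1 of the 2 arrays of the ethanol group carried the TGF-beta1 pattern of Fn1, and Pmepa1 on that array also lay above both FGF2 arrays. An exchange of the arrays labelled as replicate 1 between the ethanol groups was not tested and cannot be settled from the labels. All values of both ethanol arrays together, and the comparison with TGF-beta1, rest on these labels. Arrays are used as labelled, and the main counts are also given for Ethanol and FGF2 replicate 2 alone.

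The test was limma, with 4 group means fitted to all 8 arrays and p-values adjusted over the 10916 genes by the Benjamini-Hochberg method. With a threshold of 0.05 it called 0 genes (0.0%), and with replicate 2 alone it also called 0 (0.0%). The smallest adjusted p was 0.0601 with both ethanol arrays, shared by 37 genes of which 36 were lower with ethanol, and 0.412 with replicate 2 alone. At an unadjusted p under 0.05 there were 465 lower genes (4.26%) and 441 higher genes (4.04%) with both arrays, and 400 lower and 262 higher with replicate 2 alone. This count turned on FGF2 replicate 2: without it limma called 76 genes, 75 of them lower and 44 of those called in the cell division lists, and replicate 2 of the ethanol group tested without it gave 21, all lower and 12 of them in those lists. Without either Ethanol and TGF-beta1 array, 1 at a time, the count was 15, and without FGF2 replicate 1 it was 1. After quantile normalization it was 54, of which 53 were lower, and with no signal filter it was 29, all lower. An exact permutation test of 2 arrays against 2 cannot give a two-sided p below 0.333. No single gene below therefore passed the test in the main comparison, and the text describes genes by their signals and by whether the groups overlapped.

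Both ethanol arrays lay at least 2-fold below both FGF2 arrays for 124 genes (1.14% of the genes tested) and at least 2-fold above them for 32 (0.293%). With replicate 2 alone the counts were 198 (1.81%) and 67 (0.614%), and with the array labelled replicate 1 alone 429 (3.93%) and 452 (4.14%). Groups that did not overlap at all, whatever the distance, were found for 1393 lower genes (12.8%) and 2102 higher genes (19.3%). At the edge of the 2-fold rule, Hells (2.00-fold) and Fbxo5 (2.005-fold) lay just inside on the lower side, and Mest (1.98-fold) and Ccbe1 (1.97-fold) just outside. On the higher side, Nkain2 (2.01-fold) and Nr4a1 (2.02-fold) lay just inside, and Vps13d (1.99-fold) and Lipg (1.94-fold) just outside.

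Genes of cell division were the bulk of what was lower with ethanol. The 11 lists of such genes held 166 tested genes, 1.52% of all genes tested. Of these, 76 lay at least 2-fold below both FGF2 arrays on both ethanol arrays and 0 lay above, and these 76 were 61.3% of the 124 lower genes. With replicate 2 alone, 83 of the 166 lay at least 2-fold lower. The median log2 difference of the 166 was -1.53, against 0.05 over all genes tested. It was -1.60 on the array labelled replicate 1 and -1.41 on replicate 2. The ethanol arrays lay within 2-fold of each other for 139 of the 166 genes (83.7%), a share near the 87.0% of all genes tested. Between the FGF2 arrays, 135 of the 166 were lower on FGF2 replicate 2 than on replicate 1, with a median difference of -0.62. In RNA of whole cultures, fewer dividing cells and less of these transcripts per cell cannot be told apart.

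**Figure D1:**
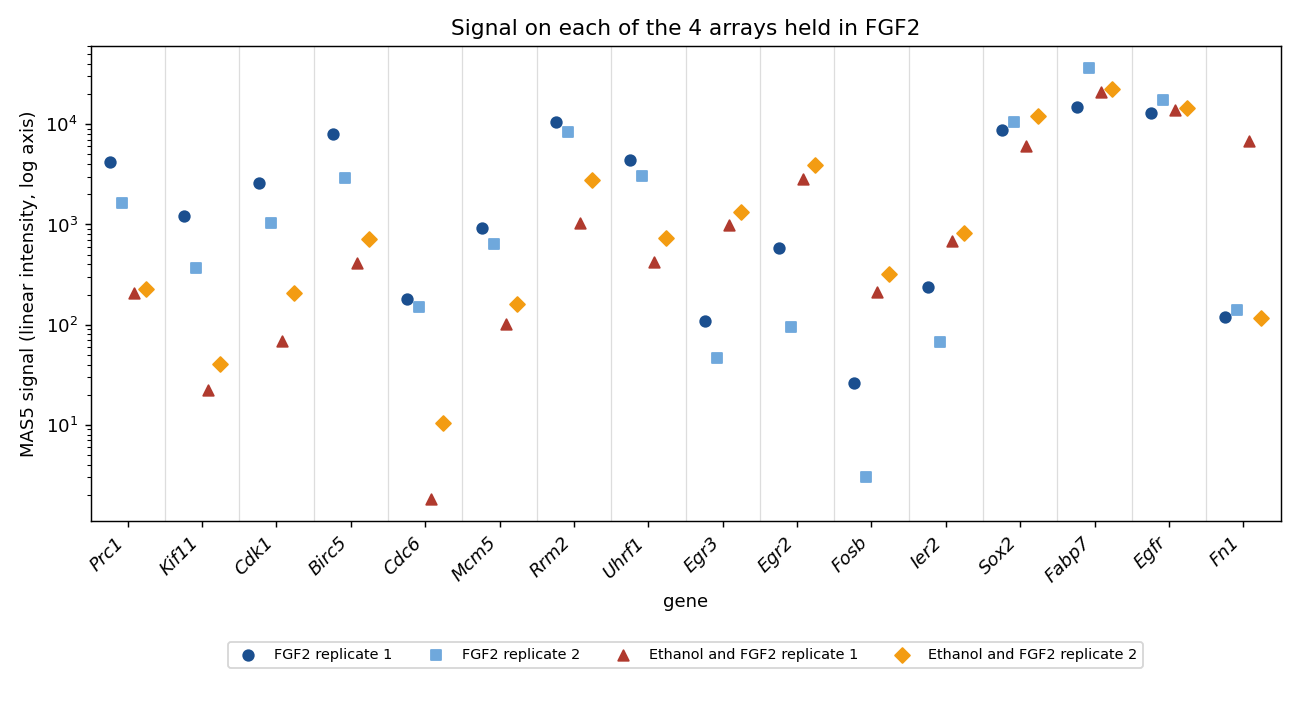
Signal of 16 genes on each of the 4 arrays held in FGF2 (log axis); each point is 1 array, coloured by group and replicate. The division genes from Prc1 to Rrm2, and Uhrf1 of the DNA methylation and chromatin list, are lower on both ethanol arrays than on both FGF2 arrays. Egr3 to Ier2 are higher, Sox2, Fabp7 and Egfr overlap, and Fn1 is high only on the array labelled as Ethanol and FGF2 replicate 1.

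The promoters of 4 of these genes, and of the immediate-early gene Egr2 described below, show the elements that cell-cycle and growth-factor regulated genes are known for. They are RefSeq sequences (GRCm38.p6), from 250 bases before to 50 bases after the annotated start, printed along the gene's strand. Capitals mark 4 kinds of match, each searched on both strands. A CHR element, known from late cell-cycle genes, was searched as TTTGAA and in its other common form, which is TTCGAA. The CCAAT box, bound by NF-Y, was searched by the letters of its name. E2F sites, known from genes of S phase, were searched as TTTCGCGC or TTTGGCGC. The CArG box, bound by serum response factor, is marked in Egr2. Prc1 lies on the plus strand at chr7:80294201-80294500, Kif11 on the plus strand at chr19:37376132-37376431, Cdk1 on the minus strand at chr10:69352863-69353162, Clspn on the plus strand at chr4:126556730-126557029 and Egr2 on the plus strand at chr10:67537316-67537615. Prc1 has 2 start sites in the RefSeq table and Egr2 has 5, and the first start whose window held the marked elements is shown.
Prc1: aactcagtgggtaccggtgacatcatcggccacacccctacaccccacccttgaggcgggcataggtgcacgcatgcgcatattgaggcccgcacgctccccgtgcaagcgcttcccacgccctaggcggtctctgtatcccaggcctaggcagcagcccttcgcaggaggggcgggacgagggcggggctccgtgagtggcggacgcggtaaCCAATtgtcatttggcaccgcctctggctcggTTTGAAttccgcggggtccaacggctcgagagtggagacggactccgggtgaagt
Kif11: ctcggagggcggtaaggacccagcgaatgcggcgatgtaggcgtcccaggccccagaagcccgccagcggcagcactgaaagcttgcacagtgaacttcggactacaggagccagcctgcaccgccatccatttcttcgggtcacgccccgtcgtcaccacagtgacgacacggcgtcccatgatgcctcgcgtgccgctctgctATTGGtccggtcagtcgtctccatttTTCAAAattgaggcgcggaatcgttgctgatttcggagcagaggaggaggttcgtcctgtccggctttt
Cdk1: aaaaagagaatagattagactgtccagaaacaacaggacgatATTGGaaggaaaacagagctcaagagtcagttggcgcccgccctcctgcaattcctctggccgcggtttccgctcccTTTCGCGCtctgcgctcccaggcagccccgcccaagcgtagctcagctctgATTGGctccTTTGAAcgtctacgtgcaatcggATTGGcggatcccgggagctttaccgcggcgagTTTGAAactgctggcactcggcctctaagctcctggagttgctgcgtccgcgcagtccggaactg
Clspn: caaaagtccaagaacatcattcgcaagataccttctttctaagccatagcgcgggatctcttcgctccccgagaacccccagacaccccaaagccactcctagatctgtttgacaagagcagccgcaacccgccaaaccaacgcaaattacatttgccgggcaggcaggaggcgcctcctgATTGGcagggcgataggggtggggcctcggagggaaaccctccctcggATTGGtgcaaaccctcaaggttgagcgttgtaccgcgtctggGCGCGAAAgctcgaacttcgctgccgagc
Egr2: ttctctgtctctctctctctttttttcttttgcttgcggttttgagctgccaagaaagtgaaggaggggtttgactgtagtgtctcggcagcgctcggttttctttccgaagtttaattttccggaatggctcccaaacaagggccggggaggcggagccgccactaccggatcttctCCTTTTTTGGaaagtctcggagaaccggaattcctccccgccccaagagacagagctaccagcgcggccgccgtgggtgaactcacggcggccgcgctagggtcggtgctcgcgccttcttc
The windows of Prc1 and Kif11 each hold 1 CHR element and 1 CCAAT box. The Cdk1 window holds 2 CHR elements, 3 CCAAT boxes and 1 E2F site, and the Clspn window 2 CCAAT boxes and 1 E2F site. A window was given for 100 of the 124 lower genes and 26 of the 32 higher genes. A CHR element was in 50 of the 100 lower genes' windows, in 16.2% of those of the 8927 tested genes with a window, and in 21.7% of those of all 27025 genes in the table. A CCAAT box was in 66 of the 100, in 43.8% and in 41.1% of the same sets, and both elements together in 38 of the 100, in 6.65% and in 8.61%. An E2F site was in 9 of the 100, in 1.92% and in 0.929%. A CArG box was in 2 of the 100, in 1.60% and in 1.81%, and the cAMP response element TGACGTCA, also searched, in 6 of the 100, in 3.72% and in 2.03%. Of the 26 higher genes, 0 held a CHR element, 7 held a CCAAT box, 2 an E2F site, 0 a cAMP response element and 1, Egr2, a CArG box. Of the 151 genes with a window that were lower on replicate 2 alone, a set added after the data were seen, 41.1% held a CHR element, 61.6% a CCAAT box and 31.8% both. Of the 50 genes with a window that were higher on replicate 2 alone, 1 held a CHR element and 17 a CCAAT box. In all these counts a gene held an element if any of its windows, 1 per start, had a match. Genes with several starts had more windows to match in. These are matches of letters, given as a description with no test.

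The mitotic lists of the spindle, the passenger complex, the cyclins and kinases, and the centromere had the medians farthest from 0 among the division lists. In the list of kinesins and spindle proteins, 15 of 22 tested members lay at least 2-fold lower on both ethanol arrays (15 with replicate 2 alone), with a median log2 difference of -2.38. Prc1, which bundles the microtubules of the central spindle, had signals of 4205 and 1646 on the FGF2 arrays and 209 and 228 on the ethanol arrays. The ethanol values lay close together and the nearer FGF2 array was 6.64-fold above them; the log2 difference was -3.46 ± 0.40 (SE; limma adjusted p 0.0601), and -3.40 with replicate 2 alone. Kif11, the kinesin that pushes spindle poles apart, had 1208 and 369.6 in FGF2 and 22.5 and 40.8 with ethanol (-3.67 ± 0.52). Both ethanol signals were near the added constant. Tpx2, which activates Aurora A on spindle microtubules, had 3531 and 1531 against 147 and 215, but 1 of its 4 probe sets pointed upwards and 3 downwards. Nusap1, a microtubule-binding protein, had 4701 and 1447 against 110 and 344. Kif20a, a kinesin needed for cytokinesis, was nearer the threshold with 802 and 318 against 138 and 89.5. Kif23, the kinesin of the centralspindlin complex, had 393 and 302 against 78.1 and 18.8, so it was lowest on replicate 2, where its signal was under the constant. Ckap5, a microtubule polymerase, and Kif15 overlapped between the groups: Ckap5 had 1065 and 969 against 870 and 1141.

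The chromosome passenger complex and the spindle checkpoint, which hold back anaphase until chromosomes are attached, had 10 of 11 tested members at least 2-fold lower, on both arrays and with replicate 2 alone. Birc5 (survivin, a passenger subunit) had the brightest signals, 7901 and 2919 in FGF2 and 408 and 716 with ethanol (log2 -3.10 ± 0.44; limma adjusted p 0.0601). Aurkb, the kinase of the complex, had 1027 and 246 against 21.5 and 47.1. Bub1b, a checkpoint kinase, had 607 and 162 against 30.8 and 3.14. The spread within FGF2 was wide for these genes, and the groups still did not overlap. Mad2l1, the checkpoint protein that inhibits Cdc20, had 1646 and 486 against 130.3 and 137. The member that did not meet the rule was Bub3, with 3394 and 2691 against 2023 and 2717.

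Of the mitotic cyclins and kinases, 9 of 13 tested members met the 2-fold rule (10 with replicate 2 alone), with a median of -2.20. Cdk1, the kinase that drives entry into mitosis, had 2603 and 1026 against 69.2 and 207. Its ethanol signals were 4.54-fold or more below the nearer FGF2 array (log2 -3.50 ± 0.54; limma adjusted p 0.0601), and the difference was -2.85 with replicate 2 alone. Plk1, the mitotic polo kinase, had 334 and 165 against 31.6 and 34.4, and Aurka, the spindle pole kinase, 502 and 216 against 59.5 and 37.3. The ethanol signals of Plk1 were near the constant. The log2 difference of Aurka was -2.32, but -1.06 with the median over its probe sets. Cdc25c, the phosphatase that activates Cdk1, had 1042 and 195 against 91.9 and 1.77. It fell short of the rule on both arrays at 1.89-fold, met it with replicate 2 alone, and was the gene of this list in which the ethanol arrays differed most. Foxm1, the transcription factor of late cell-cycle genes, also fell short, at 1.88-fold, with 128 and 166 against 6.03 and 56.7. Cdc25b was the member with the least difference, 3448 and 2419 against 1352 and 2796. Mybl2, the B-Myb factor, did not pass the signal filter and was dim on all 4 arrays, with 36.5 and 31.1 against 65.7 and 71.3.

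Centromere and kinetochore genes, whose products attach chromosomes to the spindle, met the rule in 10 of 14 tested members (11 with replicate 2 alone). All 14 were lower on both ethanol arrays, against 12.8% of all genes tested. Nuf2, part of the Ndc80 complex that grips microtubules, had 1783 and 674 against 61.3 and 98.6. Cenpa, the histone that marks centromeres, had 1431 and 189.8 against 80.9 and 65.2. Its FGF2 arrays were far apart, and its log2 difference had a wide error (-2.53 ± 0.74). Cenpt differed least, with 916 and 642 against 594 and 566. Condensin and cohesin met the rule in 4 of 13 members, on both arrays and with replicate 2 alone, with a median of -1.26. Among them was Esco2, which acetylates cohesin in S phase: it had 1215 and 304 against 23.2 and 13.6. Both ethanol signals were under the constant, which therefore sets the size of the log2 difference (-3.93 ± 0.56; -4.73 with a constant at the 10th percentile of signals and -2.95 with one at the 50th). The core cohesin subunit Rad21 had 4720 and 4328 against 1827 and 4984, so replicate 2 lay above both FGF2 arrays. Of the anaphase-promoting complex and its partners 4 of 14 met the rule, on both arrays and with replicate 2 alone, with a median of -0.44. They were the regulators Cdc20, Ube2c, Pttg1 and Fbxo5. Cdc20 had 1918 and 441 against 118 and 83.0, whereas the structural subunit Anapc5 had 4650 and 4204 against 5548 and 4328, with overlapping groups.

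**Figure D2:**
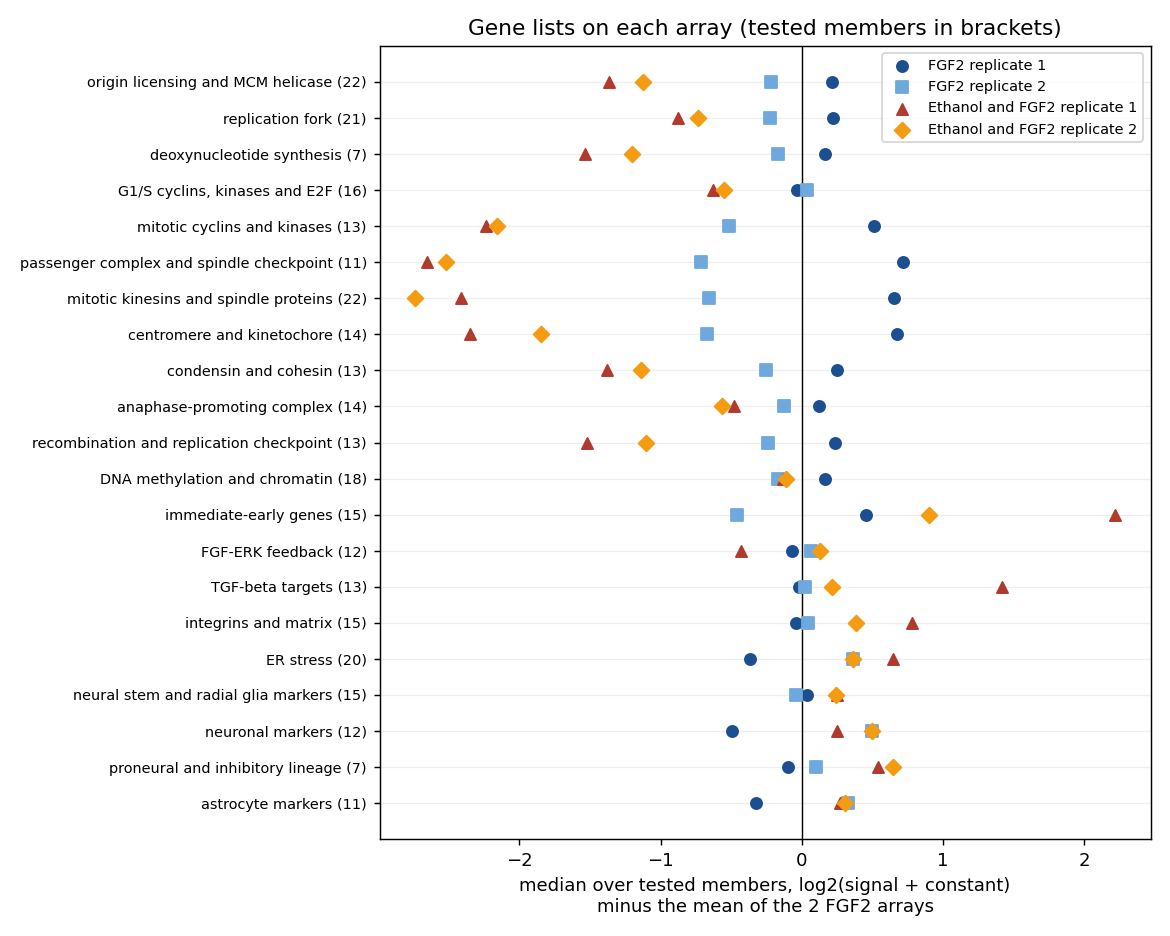
Median over the tested members of 21 gene lists on each array, as log2(signal + constant) minus the mean of both FGF2 arrays; each point is 1 array and the number of members is in brackets. The mitotic lists of the spindle, the passenger complex, the cyclins and kinases, and the centromere lie near -2 to -3 on both ethanol arrays. Condensin and cohesin (-1.38 and -1.14) and the anaphase-promoting complex (-0.48 and -0.56) lie nearer 0, and replication lists between -0.73 and -1.54. The immediate-early and TGF-beta target lists differ between the ethanol arrays (2.22 against 0.90, and 1.42 against 0.21).

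The replication lists had medians nearer 0 than those 4 mitotic lists, and farther from 0 than the anaphase-promoting complex. Of 22 tested genes for origin licensing and the MCM helicase, which opens DNA at origins, 7 met the 2-fold rule (9 with replicate 2 alone). Their median was -1.23, and 17 were lower on both ethanol arrays, against 12.8% of all genes tested. Cdc6, which loads the helicase, had 182 and 149 against 1.81 and 10.4, so both ethanol signals were under the constant. Its partner Cdt1 had 686 and 487 against 111 and 194. Mcm5, a helicase subunit, had 921 and 645 against 101 and 159.6 (log2 -2.39 ± 0.46; limma adjusted p 0.0954). Mcm3 had 809.6 and 706 against 206 and 249.8. Not every subunit differed this much: Mcm4 had 5687 and 5548 against 2336 and 4386, and Mcm7 had 2137 and 2050.4 against 1642 and 1215. The origin recognition subunits Orc4 and Orc5 overlapped between the groups, with Orc4 at 1829.9 and 1189 against 1792 and 1539.

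At the replication fork, 5 of 21 members met the rule (6 with replicate 2 alone), and the median was -0.87. All 21 log2 differences were below 0, as were 4862 of all 10916 genes tested. Top2a, the topoisomerase that untangles daughter strands, had 4176 and 2200.4 against 419 and 442 (log2 -2.75 ± 0.43; limma adjusted p 0.0601). The clamp Pcna had 5690.0 and 6383 against 4735 and 3093, a difference of -0.65 ± 0.27 that left the groups apart but within 2-fold. Of 7 tested genes for deoxynucleotide synthesis 3 met the rule, also with replicate 2 alone. Tk1, thymidine kinase, had 1849.7 and 657 against 28.8 and 151, and Rrm2, the S-phase subunit of ribonucleotide reductase, 10457 and 8311 against 1030.4 and 2748. The lower Tk1 signal was near the constant. Tyms, thymidylate synthase, was dim and overlapped, with 50.4 and 134 against 43.7 and 61.8. Of 13 genes for recombination and the replication checkpoint 7 met the rule, also with replicate 2 alone. Clspn, the adaptor of the checkpoint kinase Chk1, had 561 and 398 against 61.7 and 65.9. Brca1, a recombination factor, had 582 and 366 against 74.5 and 83.7. Atr, the kinase at the head of this checkpoint, overlapped with 423 and 496 against 485 and 401.

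Few regulators that act around the entry to S phase met the rule. Of 16 tested G1/S cyclins, kinases and E2F factors 2 met the rule (4 with replicate 2 alone), with a median of -0.67: Ccna2, cyclin A2 of S and G2 phase, and E2f7, a repressor of the E2F family. Ccna2 had 2225 and 962 against 140.3 and 248. Ccnd1, cyclin D1 and a target of growth factor signalling, had 2849 and 1829.7 against 1330.3 and 635. Its groups lay apart by 1.37-fold, and replicate 2 alone by 2.82-fold. The log2 difference of Ccnd1 was -1.29, but -0.42 with the median over its probe sets. Ccne1, cyclin E1, had 163 and 258 against 85.0 and 92.2, and E2f1 had 129 and 201 against 66.8 and 101. Cdk4, the partner of cyclin D1, overlapped with 6267 and 4521 against 5635 and 5918, as did Myc with 735 and 842 against 1431 and 589.8. Among CDK inhibitors and pocket proteins 0 of 9 tested members met the rule in either direction. For so short a list this lies near the 1.14% lower and 0.293% higher among all genes tested. Cdkn1a, the p53-induced inhibitor p21, had 3153 and 1042 against 3506 and 1352. Cdkn1b, the inhibitor p27, had 5094 and 2871 against 2161 and 4911. Both inhibitors overlapped between the groups. Rbl1, the pocket protein p107 and itself an E2F target, was lower with 1013 and 524 against 147 and 259.6.

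**Figure D3:**
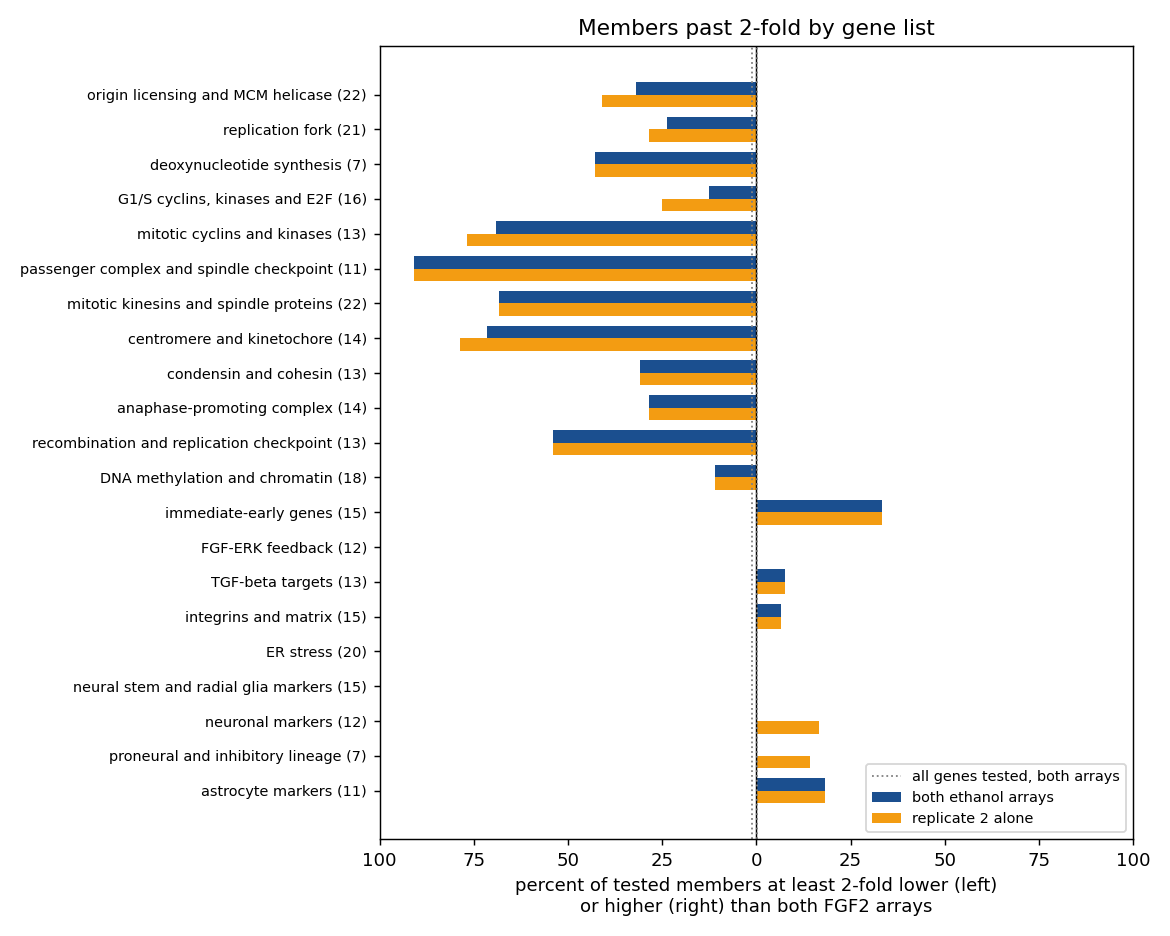
Percent of tested members of each list at least 2-fold lower (left) or higher (right) than both FGF2 arrays, for both ethanol arrays (blue) and for replicate 2 alone (orange); dotted lines give the share of all genes tested (1.14% lower, 0.293% higher). The longest bars are those of the passenger complex and spindle checkpoint, where 10 of 11 members are lower. ER stress, FGF-ERK feedback and neural stem cell markers have none in either direction, which lies near the dotted shares.

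The other 48 lower genes stood in no division list, and those named here were chosen after their values were seen. Several are known from dividing cells. Mki67, the Ki-67 antigen that coats mitotic chromosomes, had 1866 and 1123 against 298 and 246, and Aspm, a spindle pole protein needed for brain growth, had 1741 and 864 against 93.2 and 157. The log2 difference of Aspm was -3.11, but -1.53 with the median over its probe sets. Plk4, which starts centriole duplication, had 1146 and 669.9 against 105 and 214, with 1 of its 3 probe sets pointing upwards. In the list of DNA methylation and chromatin enzymes 2 of 18 tested members met the rule. Uhrf1, which brings Dnmt1 to newly copied DNA, had 4349 and 3029.8 against 418 and 727 (log2 -2.67 ± 0.33; limma adjusted p 0.0601). Hells, a helicase that also serves DNA methylation, had 1133 and 748 against 238 and 362. The methyltransferase Dnmt1 itself overlapped with 3484 and 2526 against 2646 and 2020.3, and so did Dnmt3a with 2429.9 and 2857 against 3169 and 2613. Shmt1, an enzyme of folate metabolism, had 213 and 268 against 88.2 and 10.1. It was the gene that met the rule among 10 tested genes of one-carbon metabolism (2 met it with replicate 2 alone), and replicate 2 was lower than the array labelled replicate 1.

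Immediate-early genes, transcription factors that growth factors, depolarization and stress switch on within minutes, made up 5 of the 32 higher genes. Of 18 listed genes 15 were tested, and all 15 log2 differences were above 0, as were 6054 of all 10916 genes tested. Both ethanol arrays lay above both FGF2 arrays for 11 of the 15, against 19.3% of all genes tested. For 5 they were at least 2-fold above, with both arrays and with replicate 2 alone, against 0.293% and 0.614%. The median was 1.86 on both arrays together (2.22 on the array labelled replicate 1 and 0.90 on replicate 2). Egr3 (chr14:70077317-70082613) had 108 and 46.4 against 997 and 1338, a log2 difference of 3.62 ± 0.63 (limma adjusted p 0.0722) and 3.82 with replicate 2 alone. The nearer FGF2 array was 7.74-fold below the nearer ethanol array, but the other of its 2 probe sets pointed downwards. Egr2 had 582 and 95.3 against 2857 and 3946 (3.65 ± 0.75; limma adjusted p 0.116), with both probe sets above. Fosb, a partner of Jun proteins, was near or under the constant in FGF2, with 26.2 and 3.04 against 213 and 318 (2.96 ± 0.48; limma adjusted p 0.0601). Ier2 had 235 and 67.4 against 692 and 821. Nr4a1, an orphan nuclear receptor, was dim in FGF2 as well, with 41.5 and 3.35 against 242 and 108.

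The brighter immediate-early genes did not reach 2-fold between the nearest arrays. Fos had 11538 and 1266 in FGF2 and 19159 and 19099.8 with ethanol, and Egr1 had 10729 and 2817 against 30891 and 20785. The FGF2 arrays themselves were far apart for both, with replicate 2 the lower, and so they were for Egr2, Fosb, Ier2 and Nr4a1. The count of 5 became 8 without FGF2 replicate 1 or without Ethanol and FGF2 replicate 2. With the signal filter recomputed it was 4 without the array labelled as Ethanol and FGF2 replicate 1, and a stricter filter left 1. Jun had 4042 and 4285 against 10054 and 7592, a smaller but tighter difference (1.07 ± 0.29). Junb was dim, with 82.5 and 18.6 against 177 and 101. Atf3, a stress-induced factor, stood out on the array labelled replicate 1, with 30.8 and 66.1 against 498 and 99.0. Nr4a2 and Btg2 overlapped, Btg2 with 6843 and 4736 against 6807 and 7791.

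Feedback genes of the FGF-ERK pathway, which report how strongly the receptor signals, did not share this direction on both arrays together. Of 12 tested differences 9 were below 0 and 3 above, where 4862 of all 10916 genes tested were below 0. The median was -0.27 (0.13 with replicate 2 alone). Of the 12, 0 met the 2-fold rule, which lies near the shares of 1.14% lower and 0.293% higher among all genes tested. Etv5, an ETS factor that FGF induces, had 6742 and 6832 against 3006 and 4054. Its groups lay 1.66-fold apart (log2 -0.95 ± 0.28; limma adjusted p 0.351). Spry4, an inhibitor of the pathway, had 304 and 429.7 against 65.0 and 286. Dusp6, the ERK phosphatase, had 3492 and 5719 against 1605 and 4716, and Spry2 had 11386 and 18875 against 11392 and 16668. The array labelled replicate 1 was the lower for Spry4 and Dusp6, and Dusp6 on replicate 2 lay between the FGF2 arrays. The receptors overlapped: Fgfr1 had 906 and 1659 against 1480.3 and 1616, Fgfr3 had 1669 and 2549 against 2502 and 2553, and Egfr had 12796 and 17417 against 13779 and 14652.

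The ethanol arrays differed from each other in TGF-beta targets and matrix genes. Among 9659 genes whose FGF2 arrays lay within 2-fold of each other, 593 were at least 2-fold higher and 543 at least 2-fold lower on the array labelled replicate 1 than on replicate 2. Of 13 tested TGF-beta targets, 9 were at least 2-fold above both FGF2 arrays on the array labelled replicate 1 and 1 was on replicate 2. Over all genes tested these shares were 4.14% and 0.614%. The median difference of the list was 1.42 on the former array and 0.21 on the latter. Fn1, whose high signal had singled out the array labelled replicate 1, is on this list, so the count is not independent of that choice. For Fn1 the log2 difference was 2.68 ± 1.93 with both arrays and -0.13 with replicate 2 alone. The 8 genes that were most in excess on the array labelled replicate 1 were Fn1, Mfap4 and Bgn, both matrix proteins, Lpar1, a receptor for lysophosphatidic acid, Ccn4, a matricellular protein, Lgals2, Sertad4 and Nupr1. Bgn had 64.7 and 35.1 in FGF2, 1055 on the array labelled replicate 1 and 34.97 on replicate 2, and Lpar1 had 115, 94.5, 2126 and 40.6 in the same order. On replicate 2 neither exceeded the FGF2 arrays. Bgn had 2113 and 977 in TGF-beta1 alone, and 38.1 on the array labelled as Ethanol and TGF-beta1 replicate 1.

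The opposite excess was found for Lcorl, Ttpa, Maf, Gabrg1, Mdrl, Dsc1, Abhd8 and Wdr48. Gabrg1, a GABA-A receptor subunit, had 1788 and 2233 in FGF2, 329 on the array labelled replicate 1 and 2181 on replicate 2. Maf, a transcription factor, had 2489.7 and 1609.9, then 303 and 2097. For both, replicate 2 lay between the FGF2 arrays. A gene of the TGF-beta list that stayed apart on replicate 2 was Ccn1 (a matricellular protein that is also serum-induced), with 867 and 283 in FGF2, 15014 on the array labelled replicate 1 and 2697 on replicate 2. Tnc, tenascin C, had 1327 and 1061, then 7444 and 1556, and Smad7, the inhibitory Smad, had 101 and 117, then 330.0 and 197.

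**Figure D4:**
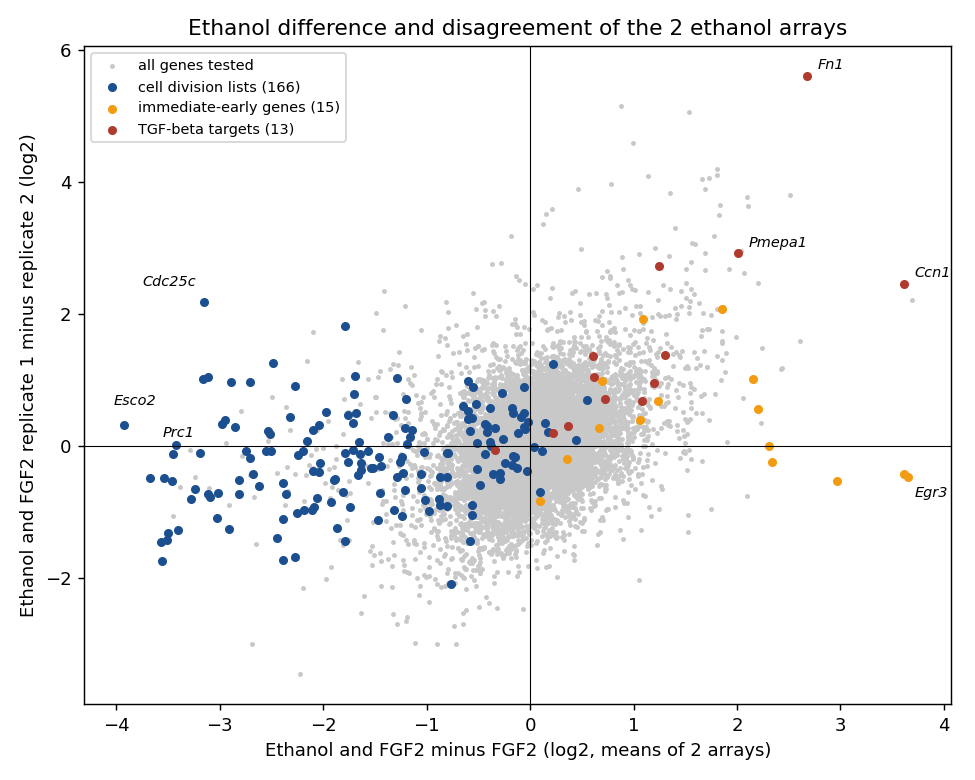
Log2 difference of Ethanol and FGF2 from FGF2 (x axis, means of 2 arrays) against the difference between the array labelled as Ethanol and FGF2 replicate 1 and replicate 2 (y axis) for all 10916 genes; each point is 1 gene. Division genes (blue) spread to the left around a replicate difference of 0, whereas TGF-beta targets such as Fn1 (red, 2.68 on the x axis and 5.61 on the y axis) lie high on the y axis. Fn1 is the gene by which the array labelled as Ethanol and FGF2 replicate 1 was singled out.

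Markers of neural stem cells and radial glia were present on all 4 arrays, as the label asks. Of 15 tested markers 0 met the 2-fold rule in either direction, and the median difference was 0.12. That count lies near the shares of all genes tested, 1.14% lower and 0.293% higher. Sox2, a factor of neural stem cell identity, had 8762 and 10589 against 6018 and 12161. Fabp7, a lipid carrier of radial glia, had 14771 and 36790.1 against 21038 and 22271. Nes (nestin) had 798 and 602 against 968 and 587, and Pax6 had 1134 and 884 against 1747 and 1421. The groups overlapped for Sox2, Fabp7 and Nes, and Pax6 lay 1.25-fold apart. The summed signal of 8 such markers was 58595 and 113303 in FGF2 and 98231 and 85094 with ethanol.

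Astrocyte markers were of mixed direction. Of 11 tested markers 2 met the rule upwards, with both arrays and with replicate 2 alone, and the median difference was 0.05. Gfap, the filament of astrocytes, had 534 and 61.9 in FGF2, 6058 on the array labelled replicate 1 and 1281 on replicate 2 (log2 3.69 ± 1.20; limma adjusted p 0.428). It was 2101.7 and 2461 in TGF-beta1 alone, so the higher ethanol value stood on the array that carried the TGF-beta1 pattern. Clu, clusterin, had 240.0 and 294, then 2273 and 792. Aqp4, the water channel of astrocytes, overlapped with 5327 and 10557 against 9609 and 11660, and so did Apoe, Gja1 and Glul. Over 6 markers the summed signal was 20473 and 32367 in FGF2 and 34105 and 34995 with ethanol, and 0 of the 6 were under the constant on all arrays.

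Neuronal genes differed little. Of 12 tested markers 0 met the rule on both arrays and 2 did on replicate 2 alone, and the median was 0.35 (0.50 with replicate 2 alone). Over all genes tested the shares were 1.14% lower and 0.293% higher on both arrays. On replicate 2 alone they were 1.81% lower and 0.614% higher. Celf4, an RNA-binding protein of neurons, differed most, with 65.6 and 241 against 483 and 832. It lay 1.92-fold apart with both arrays and 3.24-fold apart with replicate 2 alone (log2 2.10 ± 0.62; limma adjusted p 0.364). Tubb3, neuronal tubulin, had 88.1 and 207 against 452 and 287, whereas Dcx (doublecortin) had 314 and 742 against 569 and 751. Stmn2, a marker of young neurons, was 50.5 or lower on all 4 arrays. Summed over 10 neuronal markers the signal was 8409.6 and 12127 against 9715 and 12854. The list's median on FGF2 replicate 2 was as high as on Ethanol and FGF2 replicate 2, 0.50 above the FGF2 mean. Insm1, a factor of newly formed neurons and intermediate progenitors, had 268 and 246 against 509 and 734, and Dlx2, of inhibitory lineages, had 252 and 315 against 559 and 584. Both lay apart, by 1.83-fold and 1.72-fold, and neither passed the test (limma adjusted p 0.324 and 0.303). In the list of proneural and inhibitory lineage genes, 0 of 7 tested members met the rule on both arrays and 1 did on replicate 2 alone. For 3 of the 7, both ethanol arrays lay above both FGF2 arrays, as they did for 19.3% of all genes tested.

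The markers chosen for other cell types were low, but a longer list of oligodendrocyte lineage genes was not. Of microglial and endothelial markers, 7 and 5 genes, 0 passed the signal filter, with summed signals of 151 to 243 and 113 to 248 over the 4 arrays. Of 5 pluripotency markers 1, Nanog, passed, and the sum was 269.7 to 476. The mesenchymal markers (5 of 8 passed) summed to 1451 and 1386 in FGF2, 2147 on the array labelled as Ethanol and FGF2 replicate 1 and 1703 on replicate 2. Acta2, smooth muscle actin, had 11.03 and 43.96, then 223 and 29.3. Oligodendrocyte lineage markers (1 of 5 passed) summed to 539 and 375 against 651 and 831, mostly from Pdgfra, with 456 and 245 against 503 and 714. The longer list of that lineage, with 10 genes of which 4 passed, summed to 21388 and 24453 against 21709 and 26025. Other genes of the lineage were therefore bright on all 4 arrays. The part of these sums in the results was not tested.

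Lists of genes tied to ethanol itself are short, so a count of 0 lies near the share of 1.14% lower and 0.293% higher among all genes tested. Of 9 tested genes for alcohol and aldehyde metabolism 0 met the 2-fold rule. Aldh1a1, an aldehyde and retinaldehyde dehydrogenase, came closest with 609 and 494 against 2602 and 1126 (1.82-fold apart; limma adjusted p 0.426). Aldh2, which clears acetaldehyde, had 1209 and 1128 against 734 and 1009, and Adh5 overlapped with 6933 and 9216 against 11179 and 6717. Among 8 tested receptors and channels that ethanol acts on, 0 met the rule. Gria2, an AMPA receptor subunit, had 392 and 906 against 681 and 716. The adhesion molecule L1cam, a known ethanol target, was dim at 48.0 and 49.7 against 58.3 and 56.3 and did not pass the signal filter. Its relative Chl1 was lower, with 1153 and 1405 against 213 and 607 (1.87-fold apart), although 2 of its 4 probe sets pointed up and 2 down. Ncam1 overlapped, with 9018 and 11741 against 9983 and 9935.

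Stress programmes were weak on replicate 2. Of 20 tested ER stress genes 0 met the rule and 19 had a difference above 0, as did 6054 of all 10916 genes tested. The median was 0.49 (0.36 with replicate 2 alone). Relative to the FGF2 mean, the list's median was also 0.36 on FGF2 replicate 2, and -0.36 on FGF2 replicate 1. Counts of 0 in these stress lists lie near the shares of 1.14% lower and 0.293% higher among all genes tested. Hspa5, the main chaperone of the endoplasmic reticulum, had 4531 and 13979.8 against 17253 and 11448. Ddit3, the factor CHOP, had 184 and 338 against 766 and 336. Both overlapped, and in both the highest signal was on the array labelled replicate 1. Ppp1r15a, which ends the stress response, lay apart with 247 and 139 against 468 and 380.0. Of 13 tested p53 targets and apoptosis genes 0 met the rule, and the p53 target Mdm2 had 4141 and 3884 against 4505 and 3204. Of 14 tested NRF2 targets 0 met it as well. Among 15 integrin and matrix genes 1 did: Col27a1, a fibrillar collagen, had 291 and 226 against 739 and 799.

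Of the 32 higher genes 23 stood in no list, and those named here were chosen after their values were seen. Lrp1, a receptor for lipoproteins, had 624 and 788 against 2575 and 1717, Abca1, a cholesterol exporter, had 880.2 and 770.4 against 2805 and 1951, and Plin2, a coat protein of lipid droplets, had 797 and 696 against 2167 and 1653. In these 3 genes the FGF2 arrays lay close together and replicate 2 was the lower ethanol array. The log2 difference of Abca1 was 1.48, but 0.80 with the median over its probe sets. By the rule for replicate 2 alone, the genes with the largest distance upwards were Egr3, Fosb, Egr2, Vwc2, Abhd3, Ier2, Celf4 and Retreg1. Vwc2, a secreted BMP antagonist, had 772 and 805 against 808 and 3363, so it rested on replicate 2. On the lower side they were Esco2, Cdc25c, Kif23, Shmt1, Bub1b, Tacc3, D17H6S56E-5 and Prc1, of which 6 are in the division lists.

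Ethanol was also given to cells held in TGF-beta1, on 4 arrays that share no sample with the FGF2 comparison. There, 243 genes (2.23%) were at least 2-fold lower and 49 (0.449%) at least 2-fold higher on both ethanol arrays. Of the 124 genes lower in FGF2, 111 were also lower in TGF-beta1, which is 89.5% of the former and 45.7% of the latter. Of the 32 higher genes 3 were shared, 9.38% of the former and 6.12% of the latter: Col27a1, Sorcs2 and Nkain2. Both arrays labelled as replicate 1 entered these counts. With replicate 2 of each ethanol group alone, an alternative added after the data were seen, ethanol in TGF-beta1 gave 320 lower genes (2.93%) and 246 higher genes (2.25%). Of these, 131 lower genes were shared with FGF2 (66.2% of the 198 in FGF2 and 40.9% of the 320), and 18 higher genes (26.9% of the 67 and 7.32% of the 246). Prc1 had 4936 and 4969 in TGF-beta1 and 293 and 433 with ethanol, a log2 difference from the FGF2 effect of 0.25 ± 0.57. Egr3 had 92.0 and 131 in TGF-beta1, 204 on the array labelled as Ethanol and TGF-beta1 replicate 1 and 990.0 on replicate 2, and the FGF2 effect was the larger by 1.77 ± 0.89 (limma adjusted p 0.832). The interaction test called 0 genes (0.0%), with 484 at an unadjusted p under 0.05 and a smallest adjusted p of 0.832. Without both arrays labelled as replicate 1 it called 0 as well (0.0%; limma smallest adjusted p 1.0, and 212 at an unadjusted p under 0.05). A p that misses the threshold does not show that the ethanol differences were alike in both growth factors.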

How the data were processed

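RNA of NS5 cells was labelled as biotin cRNA and hybridized to 8 Affymetrix arrays, in 4 labelled groups of 2. The deposited values are linear signal intensities, which the authors made with MAS5 and GCOS per the submitters' processing notes, with versions not given in the sources used here. No detection calls were used. Of 45101 probe sets, 34958 had 1 gene symbol in the platform annotation and were kept, for 18194 genes; 932 with several symbols, 9211 with none and 64 controls were left out. The 9012 genes with several probe sets were represented by that of highest mean log2. After taking log2(signal + 23.66), genes whose mean reached the 40th percentile (6.40) were tested. No other normalization was applied, since every array had the same trimmed mean.

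Group means of all 8 arrays were fitted with limma 3.58.1 in R 4.3.3 (empirical Bayes with a trend, 4 residual degrees of freedom), with Benjamini-Hochberg adjustment and a threshold of 0.05. SE are limma's moderated standard errors. Replicate 2 alone was tested on 7 arrays with 3 residual degrees of freedom, the lone array being assumed to vary like the others. The script was tested on simulated data. Gene positions and promoters came from RefSeq tables (GRCm38.p6), with 34754 probe sets matched by Entrez identifier.

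The 43 gene lists were written by hand. The groups, the lists and the rules were chosen with earlier results of these data known, so no list is independent evidence. Named genes were those marked as a panel in the lists, the 8 genes farthest each way on replicate 2 among those at least 2-fold beyond both FGF2 arrays, and the 8 genes farthest each way between the ethanol arrays among those whose FGF2 arrays lay within 2-fold. Every other gene named, including list members such as Nusap1, Ckap5, Rad21 and Junb, was chosen after its values were seen. Some listed genes are not analysed here. Alternatives were another constant (10th or 50th percentile), no filter or a filter at the 60th percentile, quantile normalization, the median over probe sets, no trend, a replicate block, only the arrays held in FGF2, and leaving out each array. The number of arrays limits the precision.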

Additional observations from a re-analysis of the deposited data

Results flagged for a closer look

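For 3 genes both ethanol arrays lay on the higher side in FGF2 and on the lower side in TGF-beta1, without overlap in either growth factor. Scube2 had 57.4 and 55.1 in FGF2 against 209 and 174 with ethanol, a log2 difference of 1.42, and a log2 difference of -0.62 in TGF-beta1. Lingo1 had 1446 and 1519.7 against 5562 and 3483, a difference of 1.56, and one of -0.68 in TGF-beta1. Piezo1 had 48.7 and 35.04 against 244 and 134, a difference of 1.66, and one of -1.01 in TGF-beta1. The interaction test of limma gave each of the 3 an adjusted p of 0.832, so a difference between growth factors was not shown. These values rest on the arrays as labelled. With replicate 2 of each ethanol group alone, Scube2 gave 1.31 and -0.70, Lingo1 1.22 and -0.32, and Piezo1 1.28 and -0.79, in FGF2 and in TGF-beta1. For all 3 genes, the array labelled as Ethanol and FGF2 replicate 1 was the higher ethanol array and replicate 2 lay above both FGF2 arrays as well.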

How the results depend on the processing

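With a threshold of 0.05, limma called 29 genes (all lower) with no signal filter, 3 with a filter at the 60th percentile, 54 (53 lower, and Fosb higher) after quantile normalization and 1 with the median over probe sets, against 0 in the main comparison. Leaving out 1 array gave 0 to 76, and 0 to 21 for replicate 2 alone, which cannot be run without Ethanol and FGF2 replicate 2. A replicate block gave 0 genes (limma smallest adjusted p 0.168, 831 at an unadjusted p under 0.05). The replicate numbers were not taken to pair the samples. Correlations of replicate deviations across genes were -0.08 for FGF2 with Ethanol and FGF2, -0.44 between the ethanol groups and 0.47 for FGF2 with TGF-beta1. So FGF2 with TGF-beta1 did share structure, and so did the ethanol groups, with the opposite sign. The 124 lower genes became 66 with the 60th percentile filter and 86 with the median over probe sets. With a constant at the 50th or 10th percentile they became 89 or 137. They became 198 without both arrays labelled ethanol replicate 1, and 120 to 427 without 1 array. The 32 higher genes became 18 with a constant at the 50th percentile, 81 with no filter, 13 with the 60th percentile filter and 63 without both arrays, and 31 to 451 without 1 array. The 76 division genes became 42 with the 60th percentile filter and 55 with the median over probe sets. With a constant at the 50th or 10th percentile they became 58 or 82, and without 1 array 76 to 103. The 5 immediate-early genes became 1 with the 60th percentile filter and 4 to 8 without 1 array. The stricter filters test fewer genes. All 124 lower and 28 of the 32 higher genes met the rule without Ethanol and FGF2 replicate 1. Of single genes, Car3 (1.27), Dna2 (0.50) and Sync (0.68) changed sign with the median over probe sets, and Pak7 (-0.37) with a constant at the 10th percentile; the cause was not tested. Of the other gene values under these settings, 3866 moved by no more than limma's standard error and 607 by more. The 3866 include values that could not move. The signal filters, no trend, a replicate block and leaving out arrays held in TGF-beta1 keep a gene's log2 difference unchanged. The count of 3866 is therefore not a measure of robustness. Signals near the constant limit the dim genes.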
